A study of Mus musculus with 6 samples.

Results

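The subject is the autophagy machinery of spinal cord microglia, the resident macrophages of the spinal cord: 35 genes of a pathway list, all 35 found by Ensembl identifier among the 55401 genes of a count table from RNA sequencing. The double mutants, ATXN2-Q33;TDP-43, are labelled as heterozygous for knock-in human ATXN2-Q33, with an expanded glutamine stretch, and for human TDP-43. Their controls are non-transgenic mice (NTg) of the C57BL/6 strain. All animals were untreated and 7 months old, and the microglia were taken with beads against CD11b, which is also carried by other myeloid cells. Each genotype had 9 animals in 3 libraries, each a pool of 3 cords, so the replicates are separate pools: ATXN2-Q33;TDP-43 replicates 8, 10 and 12, and NTg replicates 7, 9 and 11, numbered as in the sample titles. The promoter that drives human TDP-43 and the strain of the mutants are not given in the sources used here. The comparison asks whether the RNA of this pathway differs between the genotypes at that age.

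Autophagy encloses part of the cytoplasm in a double membrane, the autophagosome, and delivers it to the lysosome. A kinase complex starts the process, a lipid kinase marks the growing membrane with phosphatidylinositol 3-phosphate (PI3P), ubiquitin-like Atg8 proteins are conjugated to that membrane, and receptors bring in the cargo. In microglia parts of the same machinery also act on phagosomes, and the pathway is known for clearing protein aggregates.

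Total counts ran from 13700483 to 19792021 in the ATXN2-Q33;TDP-43 libraries and from 12553570 to 22854628 in the NTg libraries. The 35 genes took 0.193% to 0.201% of the counts of a mutant library and 0.191% to 0.201% of an NTg library. All 10 microglial markers looked up, among them P2ry12 and Tmem119, were detected, with summed levels of 11204 to 16260 CPM (counts scaled to a common library size) in the mutants and 12563 to 15880 CPM in NTg, and 2 of the 10 had a positive and 8 a negative fold change. Markers of other cells were uneven between libraries: the 8 oligodendrocyte markers summed to 350.4, 1112 and 166 CPM in replicates 8, 10 and 12 of ATXN2-Q33;TDP-43, against 182, 1627 and 442 CPM in NTg replicates 7, 9 and 11. The 8 neutrophil markers summed to 56.0 to 1674 CPM in the mutants and 168 to 639.9 CPM in NTg, and all 8 had a positive fold change, as did the 5 monocyte, the 5 erythroid and the 4 tested ependymal markers, though 0 of them passed the adjusted edgeR test. No marker on these lists was at 0 in all libraries. Tardbp and Atxn2, the mouse genes of the genotype, had log2 fold changes of 0.05 (95% interval -0.15 to 0.25) and 0.09 (95% interval -0.08 to 0.26). Atxn2 was higher without overlap, at 104, 99.5 and 101 CPM in replicates 8, 10 and 12 of ATXN2-Q33;TDP-43, against 94.1, 96.0 and 95.9 CPM in NTg replicates 7, 9 and 11. The counts are of mouse genes, and whether they include human fragments was not tested, so these values do not check the labels. In pooled cells, a change in the number of cells of a type and a change in RNA per cell cannot be told apart.

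All 35 genes passed the filter on low counts, and none differed between the genotypes past the threshold. In edgeR's quasi-likelihood fit of 16248 genes, adjusted after Benjamini and Hochberg, 0 of the 35 passed a p of 0.05, beside 0 of all genes tested (0%). The adjusted p was 0.9996 for each of the 35. An edgeR unadjusted p under 0.05 was reached by 0 of the 35, against 2.26% of all genes, of which 1.4% were higher and 0.862% lower in the mutants. DESeq2 and limma's voom also called 0 of the 35, with 0 at an unadjusted p under 0.05 in each, where DESeq2 had 2.45% of all genes under an unadjusted 0.05 and called 7 (0.0431%), and voom called 0. The 35 genes together stood at 2027, 1910.2 and 1984 CPM in replicates 8, 10 and 12 of ATXN2-Q33;TDP-43, against 2030.3, 1937 and 1976 CPM in NTg replicates 7, 9 and 11. The groups overlapped, with means of 1974 ± 59.2 CPM in the mutants and 1981 ± 46.7 CPM in NTg (SD, n = 3 each).

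The fold changes were small in both directions. Positive log2 fold changes were found for 21 of the 35 genes, beside 52% of all genes tested, and negative ones for 14. Their median was 0.03, beside 0.01 for all genes tested, and single genes ran from -0.20 (Vmp1) to 0.26 (Atg7). Above 10 CPM, 19 of 33 were positive with a median of 0.03, beside 3841 of 8310 genes with a median of -0.01. Across the 35 genes the log2 fold change fell with the log2 CPM in NTg (Pearson's r = -0.66), so lower genes tended to more positive values. The NTg level enters both of these quantities. This correlation was not computed over all genes tested, whose median was also lower above 10 CPM (-0.01, beside 0.01 for all), so it is not shown to be particular to the pathway. The difference between group means exceeded the spread between libraries of the same genotype (pooled within-group SD on the log2 scale) for 7 of the 35, beside 28.5% of all genes tested and 21.2% of those above 10 CPM. Libraries of the genotypes did not overlap for 3 of the 35 (Atg9a and Map1lc3a higher in the mutants, Epg5 lower), beside 6.85% of all genes tested, with 3.27% higher and 3.58% lower, so the share among the 35 was near the background. Exact two-sided permutation tests over the libraries gave 0.1 for these 3 genes, the lowest p that the design can reach, and 0.3 to 1.0 for the other 14 of the 35 whose fold changes are given with a standard error.

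The intervals limit how large an unseen difference could be. For 30 of the 35 genes the 95% interval of the fold change lay inside a 1.5-fold change in either direction, that is within 0.58 on the log2 scale, beside 46.8% of all genes tested. Among genes above 10 CPM the counts were 30 of 33 for the autophagy genes, beside 85.8% of 8310 genes. The 5 wider intervals belonged to Atg10 (-0.45 to 0.92), Atg13 (-0.28 to 0.67), Wipi1 (-0.20 to 0.66), Vmp1 (-0.64 to 0.24) and Atg7 (-0.06 to 0.59). Atg10, Wipi1 and Atg13 were the 3 lowest genes of the list by CPM, and Vmp1 had a wide spread between libraries. A p that misses the threshold does not show that the genotypes are alike: for every one of these genes some difference inside its interval remains possible.

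**Figure D1:**
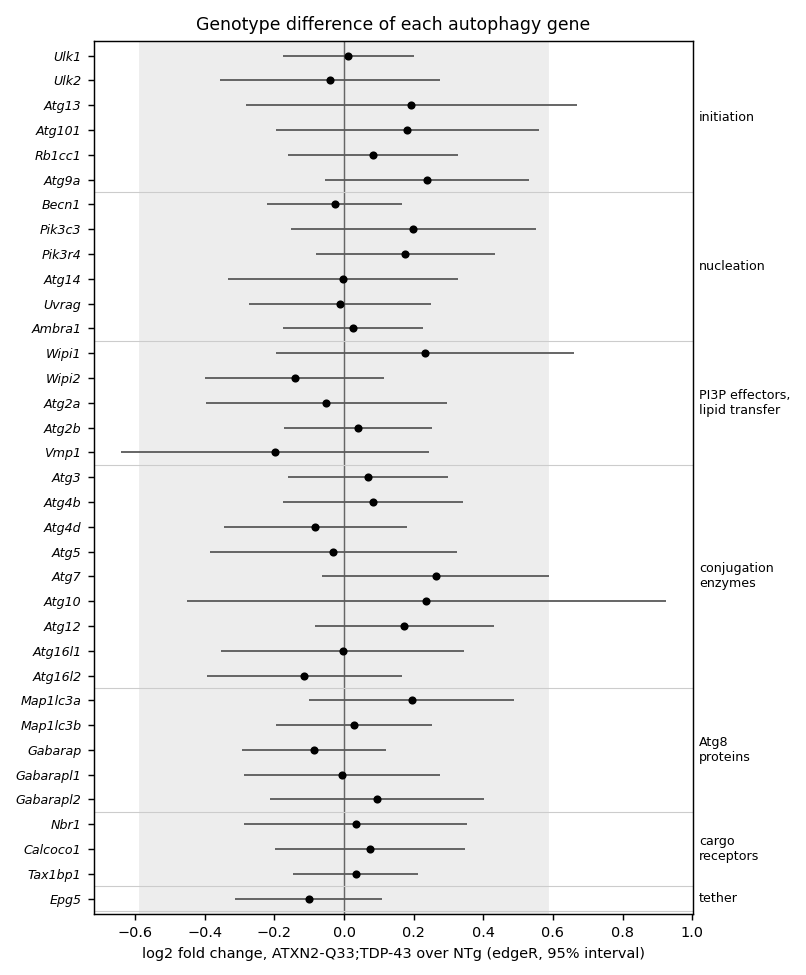
Log2 fold change of each of the 35 autophagy genes (x axis, ATXN2-Q33;TDP-43 over NTg) with its 95% interval from edgeR, grouped by role; the grey band marks a 1.5-fold change in either direction. All 35 intervals include 0, and 30 lie inside the band.

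The initiation genes code for the ULK kinase complex and Atg9a. Ulk2, a kinase that starts autophagy (mm10 chr11:61775649-61855073), had 221, 171 and 236 CPM in replicates 8, 10 and 12 of ATXN2-Q33;TDP-43, against 223, 186 and 237 CPM in NTg replicates 7, 9 and 11. In both genotypes the library with the most oligodendrocyte RNA, replicate 10 of the mutants and replicate 9 of NTg, was the lowest, and the groups overlapped almost wholly; the part of those cells in this was not tested. The log2 fold change of Ulk2 was -0.04 (standard error 0.14, 95% interval from -0.36 to 0.28). Ulk1, its paralog (mm10 chr5:110784488-110810097), had 80.0, 79.3 and 78.8 CPM in the mutants, against 80.1, 82.7 and 73.2 CPM in NTg. The mutant libraries of Ulk1 lay within the NTg range, with a log2 fold change of 0.01 (standard error 0.08, 95% interval from -0.18 to 0.20). Per base of exon, Ulk2 exceeded Ulk1 in all 6 libraries, 2.34 to 3.25 times in the mutants and 2.43 to 3.52 times in NTg.

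Atg9a, a scramblase in the vesicles that seed the autophagosome (mm10 chr1:75180860-75192196), had the smallest unadjusted p of the list, 0.098 by edgeR. It measured 35.7, 28.7 and 26.7 CPM in replicates 8, 10 and 12 of ATXN2-Q33;TDP-43, against 25.5, 26.0 and 25.7 CPM in NTg replicates 7, 9 and 11. All 3 mutant libraries were above all NTg libraries, but replicate 8 set much of the distance. Its log2 fold change was 0.24 (standard error 0.13, 95% interval from -0.05 to 0.53), and 0.11 without ATXN2-Q33;TDP-43 replicate 8, the library with the most neutrophil marker RNA; the part of those cells in it was not tested. A gene model on the same strand, Gm29253, overlaps 1832 bases of Atg9a, 31.8% of its exons, and fragments there were counted for both. Gm29253 had 348, 273 and 366 counts in the mutants and 235, 264 and 442 counts in NTg. Atg9a itself had 481, 423 and 515 counts in the mutants and 317, 394 and 566 counts in NTg. Over all 6 libraries that is 1928 counts for Gm29253 beside 2696 for Atg9a, and how many are shared was not measured. The log2 fold change of Gm29253 was 0.17 (standard error 0.16). Both the level and the fold change of Atg9a are therefore uncertain by the shared part.

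The remaining initiation genes are subunits that hold the kinase complex together. Rb1cc1, the scaffold also called FIP200, measured 75.4 ± 4.97 CPM in the mutants and 71.1 ± 8.75 CPM in NTg (SD, n = 3 each), which is 0.08 as a log2 fold change. Atg101 measured 16.2 ± 2.70 and Atg13, its direct partner, 11.3 ± 2.22 CPM in the mutants, against 14.2 ± 1.36 and 9.89 ± 1.89 CPM in NTg, with log2 fold changes of 0.18 and 0.19. Of the 6 initiation genes, 5 had a positive fold change (median of the group 0.13), and 0 passed the test.

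Nucleation rests on complexes of the class III PI3-kinase, which makes PI3P. Uvrag, a subunit best known from the endosomal form of the complex (mm10 chr7:98885021-99141141), had 94.9, 118 and 94.7 CPM in replicates 8, 10 and 12 of ATXN2-Q33;TDP-43, against 114, 102 and 94.0 CPM in NTg replicates 7, 9 and 11. Ambra1, a regulator of Beclin-1 (mm10 chr2:91730134-91918849), had 63.0, 54.8 and 57.1 CPM in the mutants, against 57.3, 58.8 and 55.7 CPM in NTg. For both genes the libraries of the genotypes were interleaved, and the log2 fold changes were -0.01 (standard error 0.12, 95% interval from -0.27 to 0.25) for Uvrag and 0.03 (standard error 0.09, 95% interval from -0.18 to 0.23) for Ambra1. Becn1, which codes for Beclin-1, measured 58.4 ± 2.30 CPM in the mutants and 59.5 ± 2.96 CPM in NTg, among the narrowest intervals of the list (-0.22 to 0.17). Atg14, which directs the kinase to autophagosomes, measured 19.0 ± 2.23 CPM in the mutants and 19.1 ± 2.17 CPM in NTg (SD, n = 3 each). The catalytic subunit Pik3c3 and its partner kinase Pik3r4 had log2 fold changes of 0.20 and 0.18, at 27.9 ± 3.34 and 34.9 ± 2.01 CPM in the mutants, against 24.3 ± 4.38 and 30.9 ± 3.30 CPM in NTg. Of the 6 nucleation genes, 3 had a positive and 3 a negative fold change, and 0 passed the test.

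Vmp1 codes for a membrane protein of the endoplasmic reticulum that helps lipids cross the membrane as the autophagosome grows (mm10 chr11:86583865-86683836). Its exons hold the hairpin of miR-21a on the same strand, at chr11:86584067-86584158, a microRNA known from inflammation. The mature 5′ strand is shown because fragments over this hairpin were counted for both genes; capitals mark the seed, bases 2 to 8, and the sequence is from RefSeq on GRCm38.p6.
mmu-miR-21a-5p: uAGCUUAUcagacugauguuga
The hairpin covers 92 bases, 2.38% of the exons of Vmp1, and had 186, 171 and 181 counts in replicates 8, 10 and 12 of ATXN2-Q33;TDP-43, against 218, 200 and 184 in NTg replicates 7, 9 and 11. Vmp1 itself had 3009, 2816 and 3202 counts in the mutants, against 3346, 3542 and 3602 in NTg, so the shared fragments are a small part of its total. These libraries are not small RNA libraries, and the counts over the hairpin do not measure mature miR-21a.

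Scaled to library size, Vmp1 stood at 223, 191 and 166 CPM in replicates 8, 10 and 12 of ATXN2-Q33;TDP-43, against 269, 233 and 163 CPM in NTg replicates 7, 9 and 11. The spread inside each genotype was wider than the distance between the genotypes, and replicates 12 and 11 were the lowest of their groups. The log2 fold change was -0.20 (standard error 0.19, 95% interval from -0.64 to 0.24) over all libraries, -0.04 without NTg replicate 7 and -0.37 without NTg replicate 11. Atg2a, which moves lipids into the growing membrane (mm10 chr19:6241668-6262335), had 85.5, 88.3 and 64.2 CPM in the mutants, against 90.3, 88.5 and 67.9 CPM in NTg, again lowest in replicates 12 and 11. Its log2 fold change was -0.05 (standard error 0.15, 95% interval from -0.40 to 0.29). Its paralog Atg2b measured 52.8 ± 3.12 CPM in the mutants and 51.4 ± 3.58 CPM in NTg (SD, n = 3 each). The PI3P-binding proteins Wipi2 and Wipi1 had log2 fold changes of -0.14 and 0.23, at 43.04 ± 5.30 and 10.1 ± 1.22 CPM in the mutants, against 47.5 ± 3.22 and 8.58 ± 1.21 CPM in NTg. Of these 5 genes, 2 had a positive and 3 a negative fold change, and 0 passed the test.

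**Figure D2:**
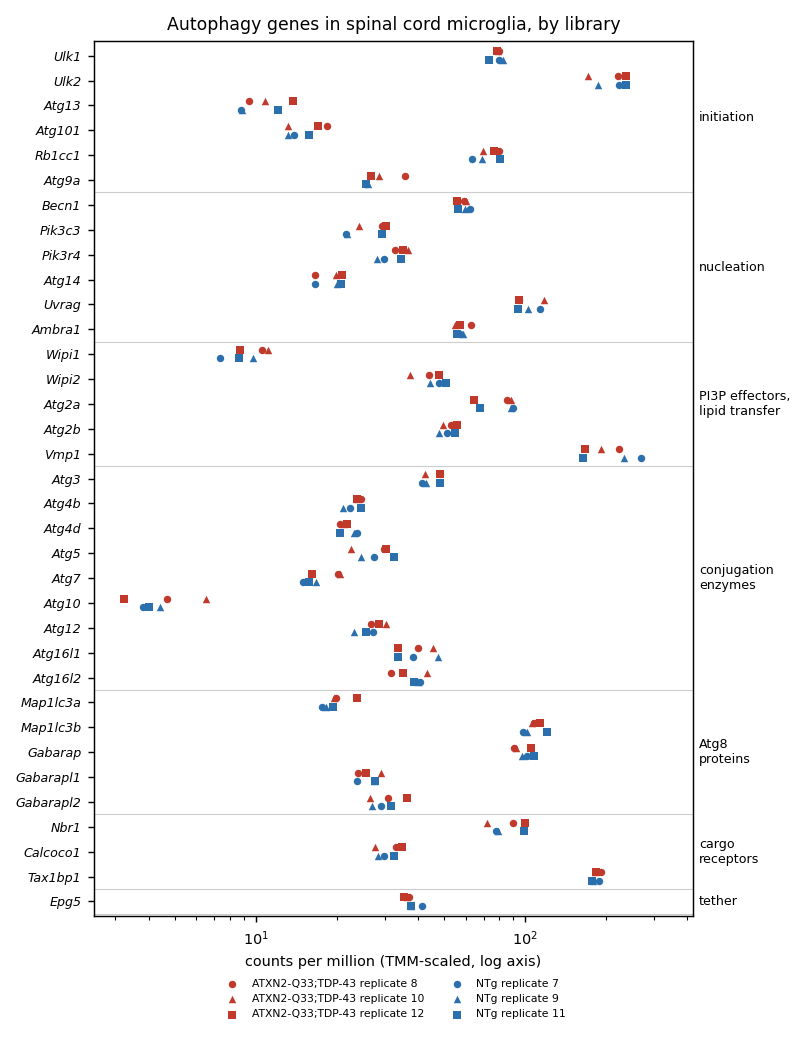
Level of each autophagy gene in each library, in TMM-scaled CPM on a log axis; red marks are ATXN2-Q33;TDP-43 replicates 8, 10 and 12, drawn above the blue NTg replicates 7, 9 and 11. The red and blue marks of a gene overlap except for Atg9a, Map1lc3a and Epg5.

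The conjugation enzymes attach Atg8 proteins to the membrane lipid phosphatidylethanolamine, in a relay like that of ubiquitin. Atg3, the enzyme that makes the last transfer (mm10 chr16:45158785-45188538), had 48.1, 42.4 and 48.3 CPM in replicates 8, 10 and 12 of ATXN2-Q33;TDP-43, against 41.2, 42.95 and 48.1 CPM in NTg replicates 7, 9 and 11, with overlapping groups and a log2 fold change of 0.07 (standard error 0.10, 95% interval from -0.16 to 0.30). Atg5, part of the complex that places Atg8 proteins on the membrane (mm10 chr10:44268358-44364291), had 30.0, 22.5 and 30.3 CPM in the mutants, against 27.4, 24.4 and 32.6 CPM in NTg, lowest in replicates 10 and 9. Its log2 fold change was -0.03 (standard error 0.16, 95% interval from -0.38 to 0.32). Atg7, which activates both ubiquitin-like proteins, had the largest fold change of the list, at 19.0 ± 2.44 CPM in the mutants and 15.8 ± 0.92 CPM in NTg (SD, n = 3 each). Replicates 8 and 10 of the mutants (20.2 and 20.6 CPM) were above all NTg libraries while replicate 12 (16.2 CPM) was not, and the log2 fold change of 0.26 had an interval that included 0. Neutrophil marker RNA was also highest in replicates 8 and 10 of the mutants, at 1674 and 1079.8 CPM, and 56.0 CPM in replicate 12. In NTg replicates 7, 9 and 11 it was 639.9, 168 and 402.6 CPM, while Atg7 had 14.9, 16.7 and 15.7 CPM. Within NTg the library with the most neutrophil marker RNA thus had the least Atg7. The part of those cells in the values of Atg7 was not tested.

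The remaining conjugation genes include the partners and proteases of this relay. Atg16l1, which anchors the complex of Atg5 and Atg12, had 39.8, 45.4 and 33.8 CPM in the mutants, against 38.3, 47.5 and 33.6 CPM in NTg, with a log2 fold change of -0.0041. Atg16l2, its paralog, measured 36.8 ± 5.90 CPM in the mutants and 39.8 ± 1.08 CPM in NTg (SD, n = 3 each). Atg12, which is conjugated to Atg5, had a log2 fold change of 0.17, at 28.5 ± 1.78 CPM in the mutants and 25.3 ± 1.99 CPM in NTg. Atg10, the enzyme that transfers Atg12, was the lowest gene of the list, at 4.80 ± 1.65 CPM in the mutants and 4.06 ± 0.32 CPM in NTg. The proteases Atg4b and Atg4d, which trim Atg8 proteins and release them again, had log2 fold changes of 0.08 and -0.08, at 24.0 ± 0.55 and 21.2 ± 0.63 CPM in the mutants and 22.6 ± 1.82 and 22.4 ± 1.71 CPM in NTg. Of the 9 conjugation enzymes, 5 had a positive and 4 a negative fold change (median of the group 0.07), and 0 passed the test.

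All 5 Atg8 genes of the list were expressed. Gabarap (mm10 chr11:69991143-69994951) had 90.9, 92.0 and 105 CPM in replicates 8, 10 and 12 of ATXN2-Q33;TDP-43, against 102, 96.9 and 107 CPM in NTg replicates 7, 9 and 11. Map1lc3b, which codes for LC3B, the protein most used as a marker of autophagosomes (mm10 chr8:121590361-121598760), had 108, 106 and 113 CPM in the mutants, against 98.3, 101 and 121 CPM in NTg. The genotypes overlapped for both genes, and the log2 fold changes were -0.09 (standard error 0.09, 95% interval from -0.29 to 0.12) for Gabarap and 0.03 (standard error 0.10, 95% interval from -0.19 to 0.25) for Map1lc3b.

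Map1lc3a, which codes for LC3A (mm10 chr2:155276297-155278073), had 19.7, 19.5 and 23.6 CPM in replicates 8, 10 and 12 of ATXN2-Q33;TDP-43, against 17.6, 18.1 and 19.2 CPM in NTg replicates 7, 9 and 11. The mutants were higher without overlap, though replicate 10 was only just above NTg replicate 11. The log2 fold change was 0.19 (standard error 0.13, 95% interval from -0.10 to 0.49) over all libraries and 0.10 without ATXN2-Q33;TDP-43 replicate 12. Gabarapl1 (mm10 chr6:129533160-129542346), at 23.8, 29.1 and 25.6 CPM in the mutants against 23.7, 27.5 and 27.6 CPM in NTg, had a log2 fold change of -0.0066 (standard error 0.12, 95% interval from -0.29 to 0.27). Gabarapl2 (mm10 chr8:111940703-111953612), at 30.8, 26.6 and 36.4 CPM in the mutants against 29.2, 26.9 and 31.6 CPM in NTg, had 0.09 (standard error 0.14, 95% interval from -0.21 to 0.40). The genotypes overlapped for both. Of the 5 Atg8 genes, 3 had a positive and 2 a negative fold change, and 0 passed the test.

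The cargo receptors link ubiquitin-marked or other cargo to Atg8 proteins. Tax1bp1, a ubiquitin-binding receptor that also restrains inflammatory signalling (mm10 chr6:52713729-52766780), had 191, 182 and 183 CPM in replicates 8, 10 and 12 of ATXN2-Q33;TDP-43, against 188, 178 and 176 CPM in NTg replicates 7, 9 and 11. It had the smallest spread between libraries of all 35 genes, a pooled within-group SD of 0.05 on the log2 scale, and a log2 fold change of 0.03 (standard error 0.08, 95% interval from -0.15 to 0.21). Nbr1, a receptor for ubiquitinated aggregates (mm10 chr11:101552149-101581951), had 89.8, 72.4 and 99.98 CPM in the mutants, against 77.9, 78.9 and 99.3 CPM in NTg, with overlapping groups and a log2 fold change of 0.03 (standard error 0.14, 95% interval from -0.29 to 0.35). Calcoco1, a receptor for endoplasmic reticulum and Golgi, measured 31.9 ± 3.69 CPM in the mutants and 30.3 ± 2.16 CPM in NTg (SD, n = 3 each). All 3 receptors had a positive fold change of at most 0.08, and 0 passed the test.

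Epg5, an effector of Rab7 that tethers autophagosomes to lysosomes (mm10 chr18:77938465-78035013), had 36.9, 36.3 and 35.6 CPM in replicates 8, 10 and 12 of ATXN2-Q33;TDP-43, against 41.3, 37.7 and 37.7 CPM in NTg replicates 7, 9 and 11. The mutants were lower without overlap, by a distance that NTg replicate 7 enlarged. The log2 fold change was -0.10 (standard error 0.09, 95% interval from -0.31 to 0.11) over all libraries and -0.06 without NTg replicate 7.

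Levels were also set side by side per length, as TPM (counts divided by length and scaled to the same total in each library) over protein-coding genes without mitochondrial ones. Over all genes of the table a single RNA of 57 bases, Gm23935, held 70.7% to 74.8% of the TPM of a mutant library and 71.9% to 74.7% of an NTg library, so that scale was not used for the values here. Vmp1 and Gabarap were the highest, at 249 ± 42.4 and 258 ± 14.2 TPM in the mutants and 283 ± 74.2 and 270.5 ± 2.71 TPM in NTg, and did not differ from each other beyond their spread. With summed exons Ulk2 came next, at 173 ± 17.9 TPM in the mutants and 176 ± 13.5 TPM in NTg. On that length the lowest were Wipi1, Atg13 and Atg7, with 11.4 ± 2.04, 12.8 ± 2.11 and 13.6 ± 2.46 TPM in the mutants, against 9.56 ± 1.71, 11.04 ± 1.69 and 11.1 ± 1.13 TPM in NTg; these 3 overlapped in their spread, also with Atg10, at 14.1 ± 5.71 TPM in the mutants and 11.6 ± 1.44 TPM in NTg.

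The length used changes part of that order. The summed exon length counts every annotated exon of a gene, and for several genes it is far longer than the longest coding transcript. For Map1lc3b it is 7517 bases, where the longest coding transcript has 2633. The lengths of transcripts that are not coding were not looked up. With the longest coding transcript, an alternative chosen after the data were seen, Map1lc3b stood at 148 ± 3.95 TPM in the mutants and 143 ± 12.8 TPM in NTg, which was 2.03 to 2.32 times the level of Map1lc3a in the mutants and 2.35 to 2.65 times in NTg. With the summed exon length it stood below Map1lc3a in all 6 libraries, at 0.75 to 0.86 times in the mutants and 0.88 to 0.99 times in NTg. Atg16l1 stood at 1.98 to 2.58 times Atg16l2 in the mutants and 1.80 to 2.44 times in NTg by coding transcript, but on both sides of it by summed exons. At the low end by coding transcript, Atg10 stood at 11.02 ± 4.40 TPM in the mutants and 9.08 ± 1.09 TPM in NTg. Wipi1 had means of 10.90 TPM in the mutants and 9.105 TPM in NTg, so Atg10 came last by the NTg mean only. The spreads of Atg10 and Wipi1 overlapped in both genotypes. Atg7 stood higher, at 17.5 ± 3.07 TPM in the mutants and 14.3 ± 1.40 TPM in NTg. Under either length Ulk2 exceeded Ulk1, Atg2a exceeded Atg2b, Wipi2 exceeded Wipi1, and Gabarap exceeded Gabarapl1 and Gabarapl2, in 6 of 6 libraries each.

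**Figure D3:**
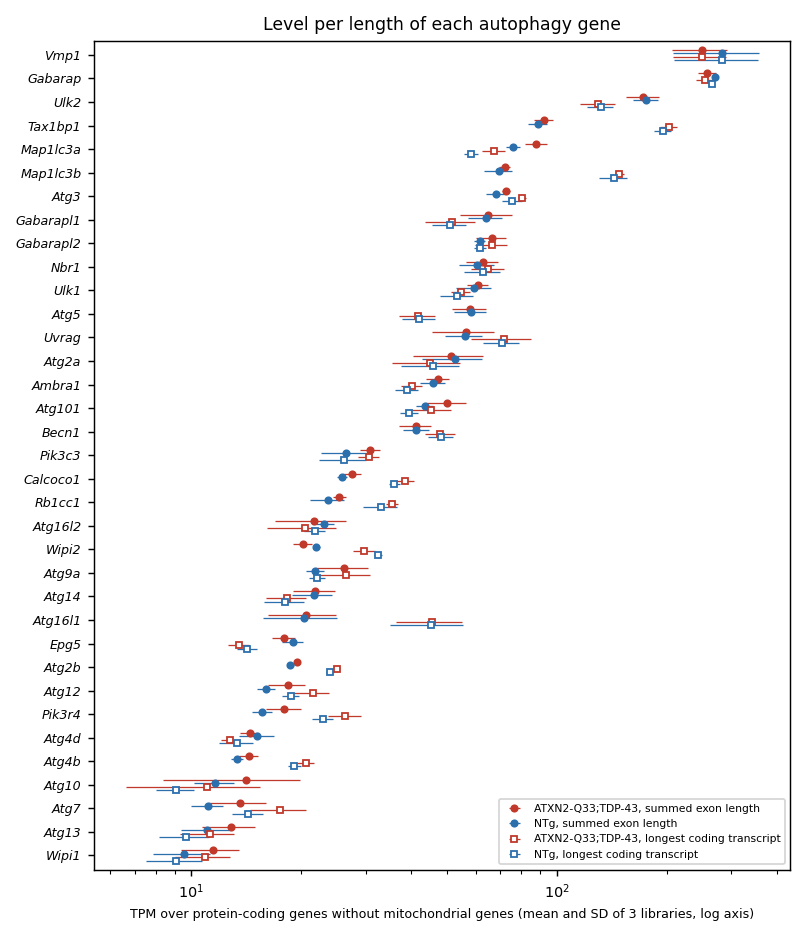
Level per length of each autophagy gene, in TPM over protein-coding genes on a log axis (mean and SD of 3 libraries); filled circles use the summed exon length and open squares the longest coding transcript, with ATXN2-Q33;TDP-43 in red above NTg in blue. Vmp1 and Gabarap lead under either length, while Map1lc3b and Atg16l1 stand higher with the coding transcript.

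The libraries of each genotype differed from each other along the order of their sample codes. After the mean of its own genotype was taken from each library, the deviations of the 35 genes correlated between neighbouring codes: Pearson's r was 0.24 between replicates 8 and 7, 0.70 between 10 and 9, and 0.69 between 12 and 11. Between mutant and NTg libraries that are not neighbours it ran from -0.75 to 0.08. These are correlations across genes of the same libraries, which are not independent, and the same was seen over 8310 genes above 10 CPM, with 0.37, 0.69 and 0.53 for the neighbours. In 11 of the 35 genes, among them Ulk2, Vmp1, Atg5 and Atg16l1, the mutant libraries in order of their codes ranked the same way as the NTg libraries, as in 36.0% of the genes above 10 CPM. The labels name no pairs. Replicates 10 and 9 also held the most oligodendrocyte RNA of their genotypes, and their 5 endothelial markers summed to 299 and 283 CPM, against 94.3 to 156 CPM in the other mutant libraries and 92.8 to 126 CPM in the other NTg libraries; their part in the deviations was not tested.

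With neighbouring codes as a block, edgeR called 71 of all genes (0.437%) and still 0 of the 35. The smallest p was that of Vmp1, with a log2 fold change of -0.18 (edgeR unadjusted p = 0.0155, adjusted p = 0.387), the only gene of the list under an unadjusted 0.05, where 8.62% of all genes were.

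**Figure D4:**
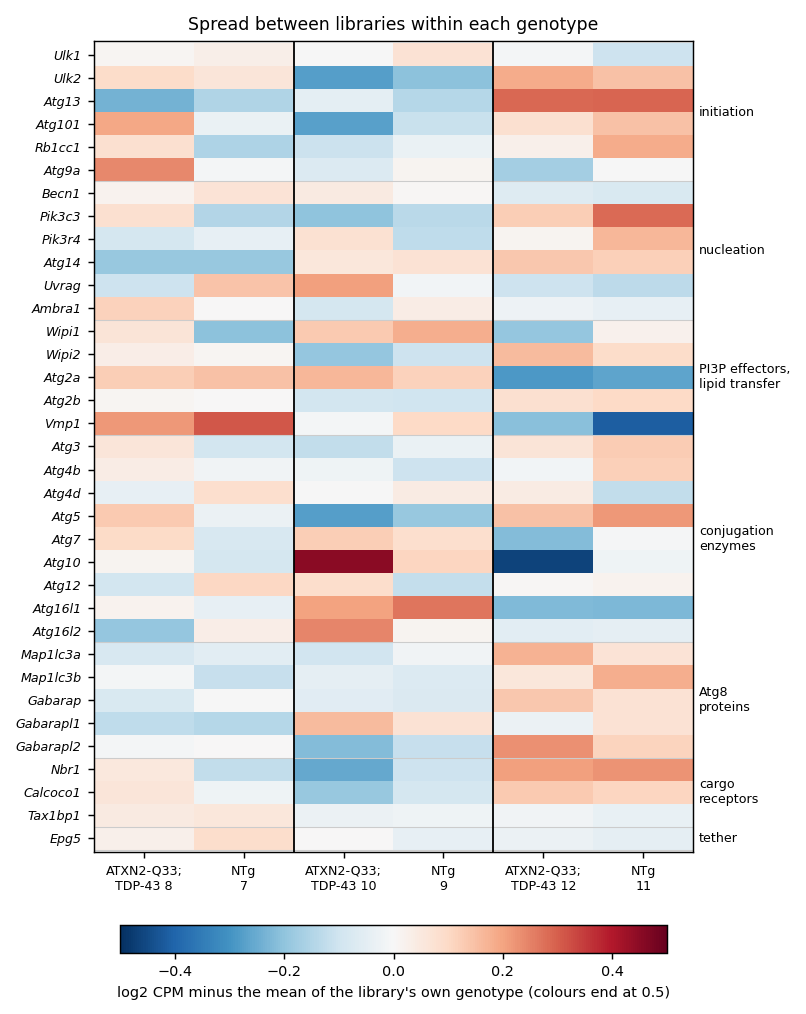
Deviation of each library from the mean of its own genotype, in log2 CPM, for the 35 autophagy genes (rows, by role); each pair of columns between black lines holds an ATXN2-Q33;TDP-43 library and the NTg library with the neighbouring sample code. Colours run alike within the pairs 10 and 9 and 12 and 11, where r is 0.70 and 0.69.

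Other genes of the pathway, from lists of known components, also gave no call. Of 70 such genes 69 were tested by edgeR, 0 passed the adjusted p, and 33 had a positive and 36 a negative fold change; Atg9b, with 0 to 3 counts in the mutants and 0 to 9 in NTg, was too low to test. An edgeR unadjusted p under 0.05 was reached by 1 of the 69, Rragc. With neighbouring codes as a block it was reached by 12 of the 69 (17.4%), 3 higher and 9 lower in the mutants, beside 8.62% of all genes, and still 0 passed the adjusted p. Among 21 further core and fusion genes the smallest p-values belonged to Vps11, a subunit of the HOPS tether, with 54.4 ± 3.39 CPM in the mutants and 61.7 ± 7.12 CPM in NTg (log2 fold change -0.18, SE 0.11), and Wdr45, a PI3P-binding protein, with 6.98 ± 1.17 CPM in the mutants and 5.49 ± 0.22 CPM in NTg, higher without overlap (0.35, SE 0.22). Among 13 further receptors they belonged to Tollip, with 106 ± 8.45 CPM in the mutants and 116 ± 6.09 CPM in NTg (-0.13, SE 0.09), and Sqstm1, which codes for the receptor p62. Sqstm1 was far more abundant than any of the 35 genes in counts, with 869.6, 813 and 822 CPM in replicates 8, 10 and 12 of ATXN2-Q33;TDP-43, against 989.6, 915 and 820.5 CPM in NTg replicates 7, 9 and 11. Its groups overlapped, and the log2 fold change was -0.12 (standard error 0.10, 95% interval from -0.35 to 0.10).

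The kinases and nutrient sensors upstream of autophagy held the lowest p of these lists. Rragc, which codes for a Rag GTPase that brings mTORC1, the kinase that restrains autophagy, to the lysosome, had 107, 102 and 105 CPM in replicates 8, 10 and 12 of ATXN2-Q33;TDP-43, against 127, 126 and 124 CPM in NTg replicates 7, 9 and 11. The mutants were lower without overlap, with a log2 fold change of -0.26 (standard error 0.08, 95% interval from -0.44 to -0.09). Its edgeR unadjusted p was 0.00762 and its adjusted p 0.9996. With neighbouring codes as a block its adjusted p was 0.0712, still not past the threshold. Stk11, which codes for the kinase LKB1 that activates AMPK, had 65.7, 67.9 and 63.9 CPM in the mutants, against 58.5, 58.6 and 58.6 CPM in NTg, higher without overlap (log2 fold change 0.17, SE 0.08, 95% interval -0.0097 to 0.35). Among 6 transcription factors, Tfe3, a relative of TFEB, measured 187 ± 10.1 CPM in the mutants and 206 ± 7.09 CPM in NTg, lower without overlap (log2 fold change -0.14, SE 0.08), and Foxo3 169 ± 15.7 CPM in the mutants and 185 ± 14.5 CPM in NTg (-0.13, SE 0.10). Tfeb itself had -0.09 (SE 0.10) and Mitf 0.12 (SE 0.10), and none of the 6 passed the test.

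TFEB, TFE3 and MITF are known to bind the E-box CACGTG in promoters of lysosomal and autophagy genes, so that motif was looked up in the RefSeq promoter windows, 250 bases before to 50 bases after each start on GRCm38.p6. Of the 35 genes 28 had a window, and 4 of these (14.3%) held CACGTG (Atg3, Atg5, Atg7 and Atg14), against 8.09% of 27025 genes with a window. The motif reads the same on both strands. Atg3 alone held it within TCACGTGA, as 1.12% of all genes did, and none held the longer CLEAR palindrome that contains both, against 0.37% of all genes. The RefSeq start lay 44 bases inside the gene as the count table bounds it for Atg3, 2215 bases inside it for Atg14 and 27999 bases inside it for Atg7, so the window of Atg7 belongs to an internal start, and it lay 19 bases outside the gene for Atg5. The 250 bases before the RefSeq start of Atg3, which had the most matches, are shown, at chr16:45158579-45158828 on the plus strand. Capitals mark CACGTG at the first match and the longer TCACGTGA at the second.
Atg3: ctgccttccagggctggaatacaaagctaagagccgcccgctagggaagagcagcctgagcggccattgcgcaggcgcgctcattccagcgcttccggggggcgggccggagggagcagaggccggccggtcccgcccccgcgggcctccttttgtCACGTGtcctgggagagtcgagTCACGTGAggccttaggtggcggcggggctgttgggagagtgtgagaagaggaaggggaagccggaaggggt
CACGTG itself begins 94 and 71 bases before that start. The 4 genes with a match had log2 fold changes of 0.07 (Atg3), -0.03 (Atg5), 0.26 (Atg7) and -0.0029 (Atg14), none past the test. A match describes these letters only and does not show that a factor binds.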

How the data were processed

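Total RNA without ribosomal RNA was sequenced, per the labels' protocols. The values used are the authors' deposited raw counts of fragments for each gene, with its summed exon length, made with featureCounts 1.6.1, strand setting 2 and GENCODE vM25 on mm10, per the file headers; a fragment over several genes on its strand was counted for each. Trim Galore 0.4.1, FastQC, TopHat2 and DESeq2 are named in the submitters' processing notes. A further 6 count columns belong to no sample listed here and stayed out.

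Symbols were matched by identifier for 55141 of 55401 genes. Counts were filtered with filterByExpr (minimum count 10), scaled by TMM and tested with edgeR 4.0.16 (robust quasi-likelihood, ATXN2-Q33;TDP-43 minus NTg, no covariates, Benjamini-Hochberg at 0.05, common biological coefficient of variation 0.261). Intervals are 95% intervals from the t distribution of that test. Permutation tests were exact and two-sided, on log2(CPM + 0.5); the smallest p is 0.1. DESeq2 1.42.0 and limma 3.58.1 were alternatives, as were other scalings and filters, a block of neighbouring codes, and fits without single libraries. The fit was also run on counts simulated from its own means and dispersions, independently for each library. Those counts held no deviations shared between neighbouring codes, so that run does not bear on them. TPM was computed from counts and lengths. It was planned over all genes, and values over protein-coding genes are given because a short RNA dominates the total. Gene types and coding transcript lengths came from an earlier GENCODE release than that of the counts.

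The members and lists were chosen with earlier results of these data known. All 35 genes are named. Each library is given for genes with an unadjusted p under 0.05 or no overlap between groups, for the Atg8 genes and for the 2 highest per length of each role; of the other lists the 2 with the smallest p are named. Library values of Atg7 and Atg16l1, and values of Tfeb, Mitf and the genes with a promoter match were added after they were seen.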

Additional observations from a re-analysis of the deposited data

How the results depend on the processing

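In the 16 other fits 0 of the 35 autophagy genes was called, with 0 to 2 at an unadjusted p under 0.05, while the count over all genes was 7 with DESeq2, 6 without a filter on low counts, 71 with the block of neighbouring codes, 1 without NTg replicate 9 and ATXN2-Q33;TDP-43 replicate 10 together, and 0 to 2 when 1 library was left out. The groups share no replicate number, so the block pairs neighbouring codes, which the labels do not pair. The 95% interval lay inside a 1.5-fold change for 30 of the 35 in the main fit and for 26 to 29 when 1 library was left out. It did so for 26 without replicates 9 and 10 together and for 33 with the block. The median log2 fold change of the 35 was 0.024 to 0.10 when 1 library was left out (0.084 without ATXN2-Q33;TDP-43 replicate 10, 0.10 without NTg replicate 11) and -0.017 with a covariate for the libraries whose alignments are named combined (NTg replicates 7 and 9, added after the data were seen), where NTg rests on replicate 11. Of 272 values of the 17 genes given in full, 240 kept direction and side of the threshold and 32 changed sign; Atg9a, Map1lc3a, Gabarap, Tax1bp1 and Epg5 never did. Leaving out 1 library gave -0.034 to 0.049 for Ulk1, -0.14 to 0.085 for Ulk2, -0.12 to 0.062 for Uvrag, -0.031 to 0.067 for Ambra1, -0.17 to 0.082 for Atg2a, -0.12 to 0.096 for Atg5, -0.029 to 0.13 for Map1lc3b, -0.091 to 0.059 for Gabarapl1, -0.030 to 0.20 for Gabarapl2 and -0.076 to 0.16 for Nbr1. With no change of sign but a move by over 1.5 times, it gave 0.11 to 0.32 for Atg9a, -0.37 to -0.037 for Vmp1, 0.022 to 0.14 for Atg3, 0.099 to 0.24 for Map1lc3a, -0.16 to -0.045 for Gabarap, 0.013 to 0.062 for Tax1bp1, -0.12 to -0.058 for Epg5, -0.25 to -0.092 for Vps11, -0.19 to -0.079 for Tollip, -0.20 to -0.058 for Foxo3 and -0.19 to -0.057 for Sqstm1. The covariate gave 0.12 for Uvrag, 0.22 for Atg2a, 0.24 for Vmp1, -0.054 for Atg3, -0.15 for Map1lc3b, -0.017 for Gabarapl2, -0.18 for Nbr1 and 0.025 for Sqstm1. A minimum count of 50 gave 0.0019 for Uvrag and 0.0063 for Gabarapl1, and leaving out replicates 9 and 10 together gave 0.0081 for Atg5. The causes were not tested. The summed NTg level of the 35 was 229 TPM over all genes, 1899.8 TPM over protein-coding genes and 2055 TPM by the longest coding transcript. At the depth of these libraries Atg10, with 423 counts in all 6, is the least precise of the 35.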

Other observations

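Besides Rragc and Stk11, 3 more of the 29 nutrient-sensing genes had libraries that did not overlap between the genotypes, and they are named here after their values were seen. Flcn, which codes for folliculin, a regulator of Rag GTPases, had 144, 137 and 153 CPM in replicates 8, 10 and 12 of ATXN2-Q33;TDP-43, against 167, 156 and 161 CPM in NTg replicates 7, 9 and 11. Lamtor1, which anchors the Rag GTPases to the lysosome, had 34.9, 32.3 and 36.3 CPM in the mutants, against 38.7, 39.3 and 38.1 CPM in NTg. Depdc5, part of a complex that inhibits Rag GTPases, was higher, with 46.0, 47.8 and 56.0 CPM in the mutants, against 44.7, 45.5 and 46.0 CPM in NTg. That makes 5 of 29 genes without overlap, 2 higher and 3 lower, beside 6.85% of all genes tested. Over all 69 tested genes of the other lists there were 7 without overlap, 3 higher and 4 lower. None of the 5 passed edgeR's adjusted threshold, with or without the block of neighbouring codes, and the list was not tested as a set.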
